A study of Mus musculus with 4 samples.

Results

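The nuclei described here are microglia of the injured mouse cortex that still carried transcripts of homeostatic genes and had few transcripts of Gpnmb. They were chosen by their own counts, from all 4 matrices of a single-nucleus RNA-sequencing experiment in which the 3′ ends of transcripts are counted as unique molecular identifiers (UMIs). A barcode was taken when it passed a minimum depth just under 760 UMIs and held at least 2 UMIs of P2ry12, Sall1, Cx3cr1 and Gpr34 together, at least 2 of Csf1r, Inpp5d and Apbb1ip together, and at most 4 of Gpnmb. It also had to hold no UMI of Cd163, F13a1 or Flt3, which mark border macrophages and dendritic cells, and at most 1 UMI of Bnc2, Slc17a7, Gad2 and Aqp4 together, which mark fibroblasts, neurons and astrocytes. This left 871 microglia among 22905 barcodes of sufficient depth. The counts of the genes in the rule are therefore descriptions and are tested nowhere.

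The nuclei came from brains at 21 days after a photothrombotic (PT) injury, a focal cortical lesion made by light activation of a dye in the circulation. The control mice were labelled WT, and the other mice carried Col1a2(creER) and Cxcl12(flox), in which an inducible Cre recombinase expressed in fibroblasts was to delete the chemokine gene Cxcl12 after tamoxifen. The question behind the design was whether fibroblast CXCL12 shapes the immune cells of the lesion and their interferon response. Each genotype was 1 library, in which 1 female and 1 male mouse were pooled and lesional nuclei and nuclei from the neighbouring parenchyma were tagged and mixed at 75% and 25% before sorting on DNA content, so the 4 matrices are the lesion and the parenchyma of 2 libraries. With 1 library per genotype there is no replicate spread and no test. Every interval below is a 95% interval of counting error alone, exact for Poisson sums, Clopper-Pearson for shares and conditional binomial for ratios, and none of them covers differences between mice, dissections or library preparations.

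Microglia are the resident macrophages of the brain parenchyma. They depend on CSF1 receptor signalling and on TGFβ, and at rest they express a set of surveillance genes that includes the ADP receptor gene P2ry12, the fractalkine receptor gene Cx3cr1, the orphan receptor gene Gpr34 and the transcription factor gene Sall1. Near injury or debris they lower these genes and take up a lipid-handling and phagocytic programme, often called disease-associated, of which Gpnmb, Spp1, Lpl and Igf1 are known members. Interferon-γ from lymphocytes acts on them through its receptor and raises guanylate-binding proteins, chemokines and antigen presentation.

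Cxcl12, the gene to be deleted, is given before the microglia. In lesional nuclei with fibroblast transcripts, Cxcl12 stood at 86.5 counts per 1000000 UMIs (CPM) under the control label and at 185 CPM under the Cxcl12-cKO label, from 4239 and 3550 nuclei and 1337 and 2354 UMIs. The log2 ratio was 1.10 (interval 1.00 to 1.20), with 1.29 in female and 1.05 in male nuclei, so the level went against the label. Which stretch of Cxcl12 was to be deleted was not found in the sources read, and counts near the 3′ end need not register a deletion, so this level checks nothing about the recombination. The libraries are called by their labels below for this reason. The 4 matrices held between 3216 and 8608 barcodes, with a median of 2941 and 2923 UMIs per nucleus in the lesion and 17068 and 17925 in the parenchyma. The libraries had 47 barcodes in common, none of which was a microglial nucleus in both. Among lesional microglia, 9.13% (label control) and 6.88% (label Cxcl12-cKO) held UMIs of both Xist and a Y-linked gene. Such barcodes are doublets or hold free RNA of the other mouse, and no doublet caller was run.

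Microglia of this kind made up a similar share of the lesion in both libraries and were scarce in the parenchyma. The lesion held 438 of 8321 nuclei in the library labelled control, or 5.26% (4.79 to 5.77), against 378 of 8169 in the one labelled Cxcl12-cKO, or 4.63% (4.18 to 5.11). The parenchyma held 22 of 3228 nuclei, or 0.682% (0.428 to 1.03), and 33 of 3187, or 1.04% (0.714 to 1.45). The lesional log2 ratio of Cxcl12-cKO over control, −0.19, had an interval from −0.39 to 0.02 and so included no difference. Taken by sex, it was 0.14 (−0.13 to 0.42) for female and −0.38 (−0.85 to 0.08) for male nuclei. Female nuclei were the larger part of the lesional microglia, with 209 female and 98 male nuclei in the control library and 228 and 69 in the other. The remaining nuclei carried UMIs of both mice or of neither sex-linked set.

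Their place among lesional macrophages differed more between the libraries than their share of all nuclei. Of 1481 nuclei in any of 4 myeloid gates, 29.6% (27.3 to 32.0) were microglia of this kind in the library labelled control, against 21.9% (20 to 23.9) of 1726 in the library labelled Cxcl12-cKO. The microglia were fewer and the myeloid nuclei more numerous under the Cxcl12-cKO label. Nuclei with 5 or more Gpnmb UMIs went from 4.05% to 7.27% of all lesional nuclei, a log2 ratio of 0.84 (0.65 to 1.04), which was 1.60 (1.28 to 1.94) in female and 0.11 (−0.22 to 0.43) in male nuclei. In the parenchyma there were 0 and 2 such nuclei.

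**Figure D1:**
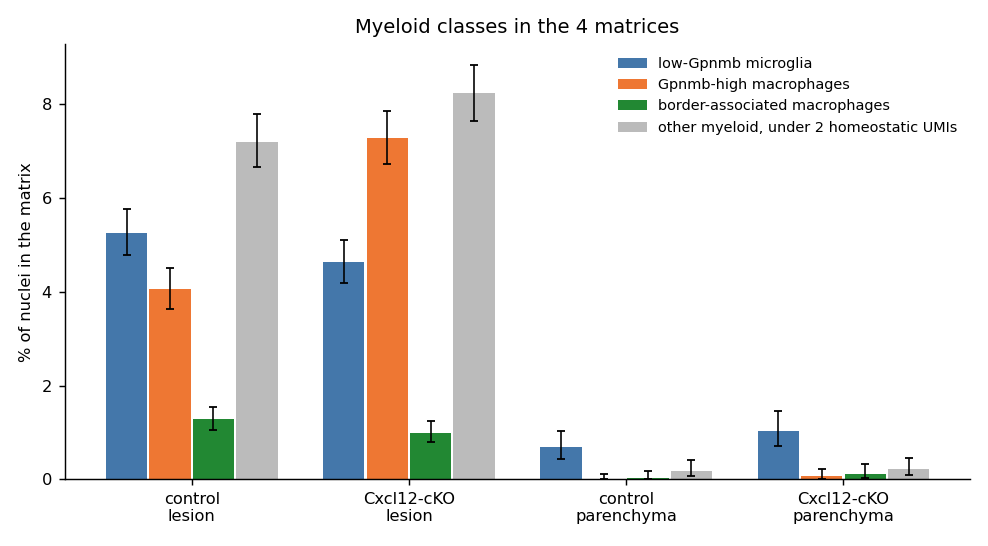
Share of nuclei (percent, y axis from 0) in 4 myeloid gates for the 4 matrices, with Clopper-Pearson 95% intervals that cover counting error only. The low-Gpnmb microglia stood at 5.26% and 4.63% of lesional nuclei, while Gpnmb-high nuclei stood at 4.05% and 7.27%.

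In the lesion the gate took nuclei with unequal support for its name. Sall1, the most microglia-restricted gene of the rule, was found in 116 of 438 lesional nuclei (26.5%) and 114 of 378 (30.2%), and P2ry12 in 291 (66.4%) and 247 (65.3%). By contrast 78 (17.8%, 14.3 to 21.7) and 59 (15.6%, 12.1 to 19.7) entered through Cx3cr1 alone, a gene that monocyte-derived macrophages also express, and in the parenchyma only 2 and 1 did so. Other cells held far less P2ry12, but the gates partly set this in advance. P2ry12 is a gene of the rule, and the fibroblast and neuron gates allowed no UMI of Csf1r, Inpp5d or Apbb1ip. Its levels there are therefore a description. A P2ry12 UMI was present in 0.920% and 0.930% of lesional fibroblast-gate nuclei. Their median depth was 3052 and 3044 UMIs against 2118.5 and 2250.5 in the microglia. In parenchymal neurons, with medians of 21472 and 23421 UMIs, 41.6% and 41.0% had a P2ry12 UMI, which was 26.3 and 25.7 CPM and 2.13% and 1.60% of nuclei thinned to the minimum depth. Among markers of border-associated macrophages the summed level was 424 and 445 CPM in the lesion against 27.6 and 26.7 CPM in the parenchyma, with Lyve1 at 0 in all 4 matrices, Cd163 and F13a1 at 0 by the rule, and Ms4a7 and Mrc1 giving most of the lesional sum. The defining neutrophil genes S100a8, S100a9 and Retnlg were at 0 in the lesion, although 1 parenchymal nucleus labelled Cxcl12-cKO gave 900 of the 939 neutrophil-list UMIs there, and markers of monocytes and dendritic cells summed to 24.6 and 48.7 CPM. The nuclei are called microglia below by the rule and with this uneven support, and the Cx3cr1-only nuclei are described apart. At the threshold, 12 and 24 lesional nuclei had 4 Gpnmb UMIs and were taken, and 13 and 14 had 5 and were not. At the homeostatic minimum, 125 and 133 had 2 UMIs and were taken, and 226 and 233 had 1 and were not.

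Lesional microglia had less of most homeostatic genes than parenchymal microglia in both libraries. Siglech, which encodes a sialic acid-binding lectin of microglia and was no part of the rule, stood at 160 CPM (label control) and 114 CPM (label Cxcl12-cKO) in the lesion, against 1213 and 909 CPM in the parenchyma, in the same order. The log2 ratios of lesion over parenchyma were −2.93 (−3.40 to −2.41) and −3.00 (−3.44 to −2.54). The gene was detected in 95 of 438 and 55 of 378 lesional nuclei and in 17 of 22 and 28 of 33 parenchymal nuclei, although the parenchymal nuclei were the shallower ones, with medians of 1534.5 and 1918 UMIs. Fibroblast-gate nuclei of the same lesions held Siglech in 0.165% and 0.282%. That gate allowed no UMI of Csf1r, Inpp5d or Apbb1ip, which partly set these shares in advance. The part of free RNA in the lesional Siglech level was not tested. Tmem119, a membrane protein gene widely used as a microglial marker, behaved alike, at 29.2 and 21.7 CPM in the lesion and 221 and 187 CPM in the parenchyma, from few UMIs.

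Of 16 homeostatic genes outside the rule that could be compared, 5 were lower in the lesion past a log2 ratio of −1 in both libraries and 0 were higher, against 5.16% of all 7040 genes lower and 5.44% higher by the same criterion. The list's median log2 ratio was −1.11 and −0.71. The decrease was uneven. Mertk, a receptor for dying cells, differed in sign, at −0.41 and 0.44. Nav3, a neuron navigator family gene that is read at high levels in microglial nuclei, stood at 1955 and 1985 CPM in the lesion and 1737 and 1603 CPM in the parenchyma, and so was close in both regions. None of 13 microglial transcription factor genes passed the fold in both libraries. Runx1, a haematopoietic regulator, was 0.75 higher in the lesion on the log2 scale in each, while Mef2a, a MADS-box transcription factor gene, was at −0.53 and 0.20.

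Other genes lowest in the lesion relative to the parenchyma were, with ratios for the libraries labelled control and Cxcl12-cKO, Asb2 (−2.80 and −4.79), the adhesion receptor gene Adgrg1 (−3.21 and −2.53), Csmd3 (−2.87 and −2.66) and the calcium channel subunit gene Cacnb2 (−2.24 and −2.96). Csmd3 rested on the most UMIs and was at 428 and 368 CPM in the lesion against 3115 and 2325 CPM in the parenchyma. Csmd3 and Cacnb2 are also neuronal genes. The neuron marker list summed to 4703 CPM in the parenchymal microglia labelled Cxcl12-cKO, where 1 nucleus gave 243 of 352 UMIs. Its part in these ratios was not tested.

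**Figure D2:**
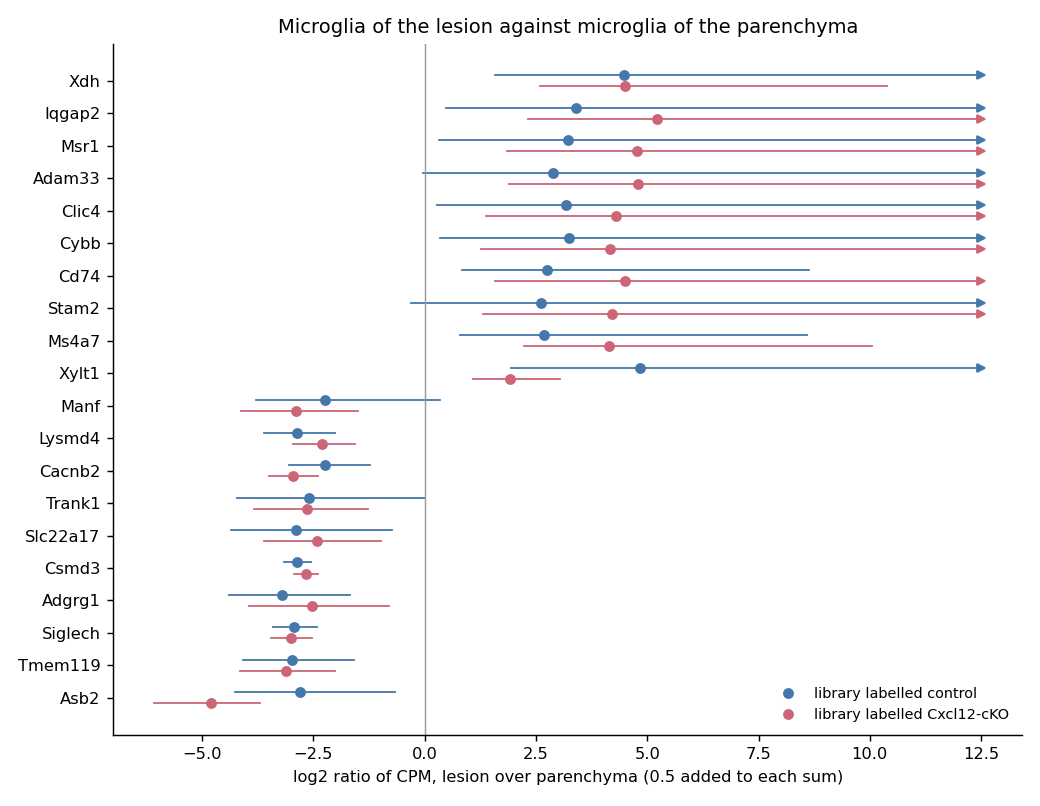
Log2 ratio of lesional over parenchymal microglia for single genes, by library label, with 95% counting intervals, where an arrow marks an interval without an upper end because the parenchymal count was 0. Siglech sat near −3 in both libraries, and the genes at the other end, such as Xdh and Ms4a7, had 0 or 1 parenchymal UMIs.

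In the other direction, lesional microglia held more of the lipid-handling and antiviral lists than parenchymal microglia. Xdh, which encodes the purine-degrading enzyme xanthine dehydrogenase, was read at 305 and 453 CPM in the lesion, from 335 and 437 UMIs in 173 and 184 nuclei, and at 0 and 13.4 CPM in the parenchyma, from 0 and 1 UMI. In the control library, where its parenchymal count was 0, the interval of the log2 ratio had no upper end and began at 1.58. In the other library the log2 ratio was 4.50 (2.60 to 10.39). Lesional fibroblast-gate nuclei held Xdh at 101 and 121 CPM, and the part of free RNA in its lesional level was not tested. Ms4a7, a tetraspanin-like gene of border and infiltrating macrophages, stood at 267 and 354 CPM in the lesion and 27.6 and 13.4 CPM in the parenchyma, with ratios of 2.69 (0.79 to 8.58) and 4.15 (2.24 to 10.04). In the fibroblast gate, whose rule partly set this in advance, Ms4a7 stood at 6.47 and 8.65 CPM. The scavenger receptor gene Msr1 and the chloride channel family gene Clic4 had 0 parenchymal UMIs and were higher in the lesion. Their log2 intervals began at 0.32 and 1.85 for Msr1 and at 0.28 and 1.38 for Clic4. The metalloprotease gene Adam33 had no parenchymal UMI either. Its log2 interval began at 1.89 under the Cxcl12-cKO label, whereas under the control label it ran from −0.03 upward and included no difference.

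Past the fold in both libraries, 5.44% of all 7040 genes were higher in the lesion and 5.16% lower. Of 9 lipid-handling genes, 4 were higher in the lesion past the fold in both libraries and 0 lower. Their summed level was higher by 1.03 (0.69 to 1.42) and 1.39 (1.14 to 1.67) on the log2 scale. Abca1, which exports cholesterol to lipoproteins, stood at 2223 and 2540 CPM in the lesion and 689 and 574 CPM in the parenchyma, ratios of 1.66 and 2.13. Igf1, the growth factor gene, stood at 472 and 854 CPM against 55.1 and 147 CPM, ratios of 2.78 (1.24 to 6.15) and 2.48 (1.69 to 3.55). Of 16 interferon-stimulated antiviral genes, 6 were higher and 0 lower, with summed ratios of 1.14 (0.70 to 1.64) and 1.38 (1.01 to 1.80). Rnf213, an interferon-induced ubiquitin ligase gene, went from 138 to 339 CPM and from 40.1 to 259 CPM between parenchyma and lesion. Class II genes of antigen presentation were higher in 4 of 6 and lower in 0, but 10 lesional nuclei per library gave 69.2% and 84.1% of their UMIs. The other interferon-inducible lists did not all rise. Of 9 interferon-γ-inducible genes 2 were higher and 1 lower, with medians of 0.94 and −0.12. Their summed ratios were 0.86 (0.28 to 1.59) and 0.72 (0.22 to 1.31). Of 7 MHC class I genes 0 were higher and 0 lower, and their sums were lower in the lesion, at −0.45 (−0.81 to −0.04) and −0.42 (−0.76 to −0.04). All of these ratios rest on 22 and 33 parenchymal nuclei.

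Between the lesions of the libraries, homeostatic genes outside the rule were nearly level, and most were slightly lower under the Cxcl12-cKO label. The rule set the genes it used, so their levels are given without weight. P2ry12 stood at 578 CPM where labelled control and 586 CPM where labelled Cxcl12-cKO, Sall1 at 146 and 150 CPM, and Gpr34 at 151 and 146 CPM. After thinning, 18.9% (15.4 to 22.9) and 10.8% (7.90 to 14.4) of nuclei held 3 or more UMIs of the 4 genes. Outside the rule, 16 of 20 homeostatic genes held 50 or more UMIs, of which 0 were higher and 1 lower past a log2 ratio of 0.5, against 5.82% of all 6492 genes higher and 9.55% lower. Of the 16, 13 lay below 0 and 3 above, with a median of −0.14 against 0.02 over all genes. The summed level of the list was 9858 and 9417 CPM, −0.07 (−0.11 to −0.03). The 1 gene lower past the fold was Ctss, which encodes cathepsin S, a lysosomal protease of antigen presentation. It stood at 1118 and 771 CPM, −0.53 (−0.67 to −0.40), with −1.13 in female and −0.44 in male nuclei. Siglech missed the fold at −0.49 (−0.85 to −0.14), with 195 and 105 CPM in female nuclei and 83.8 and 47.6 CPM in male nuclei. Cx3cr1 was at 848 and 658 CPM, −0.37 (−0.52 to −0.22), with −0.40 in female and −0.06 in male nuclei. Csf1r, the receptor on which microglia depend, was at 651 and 521 CPM, −0.32 (−0.49 to −0.16).

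Regulators and receptors of the lineage were also close. Past the fold, 5.82% of all genes were higher and 9.55% lower. None of 13 transcription factor genes, of 9 genes of TGFβ reception and activation, or of 10 genes for interferon and CSF1 receptors and kinases passed the fold in either direction. Their summed log2 ratios were 0.02 (−0.03 to 0.06), 0.09 and −0.18 (−0.27 to −0.09). Ifngr1, the ligand-binding chain of the interferon-γ receptor, was at 138 and 117 CPM, and its interval of −0.60 to 0.13 included no difference. Transcripts of the CXCL12 receptors were few, with 17 and 12 UMIs of Cxcr4 and 0 and 2 of Ackr3, so a difference in them was not detectable at this depth.

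Most interferon-inducible genes were lower under the Cxcl12-cKO label. Of all 6492 genes, 9.55% were lower and 5.82% higher past the fold. Of 17 antiviral genes tested, 5 were lower past the fold, 0 were higher and 15 lay below 0, with a median of −0.39. The list summed to 2452 and 1998 CPM, −0.30 (−0.38 to −0.21), and to −0.32 in female and −0.67 in male nuclei. After thinning, 69.4% and 69.6% of nuclei held at least 1 UMI of the antiviral list, and 24.2% and 16.7% held 3 or more. Of 11 interferon-γ-inducible genes tested from a list of 28, 5 were lower, 0 higher and 10 below 0, with a median of −0.48. Their sum was 1076 and 692 CPM, −0.64 (−0.78 to −0.50), with 1408 and 755 CPM in female nuclei and 639 and 507 CPM in male nuclei. The male interval, −0.71 to 0.04, included no difference. The sum changed with thinning. It was −0.38 when the nuclei were thinned to the minimum depth and 0.02 when they were thinned before the gate, which left 165 and 112 microglia. Without the nucleus of each library with most UMIs of the list it was −0.67. When each nucleus was thinned at random to the minimum depth, 33 of 438 nuclei (7.53%, 5.24 to 10.4) and 7 of 378 (1.85%, 0.748 to 3.78) held 3 or more UMIs of the interferon-γ list, while the shares with at least 1 were 42.7% and 36.0%. In female nuclei the shares with 3 or more were 10.5% and 1.32%, and in male nuclei 5.10% and 2.90%. In a second random draw, lesional fibroblast-gate nuclei held 3 or more in 3.14% and 2.28% and at least 1 in 28.7% and 29.0%, where microglia held them in 7.53% and 1.59% and in 42.7% and 35.7%.

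**Figure D3:**
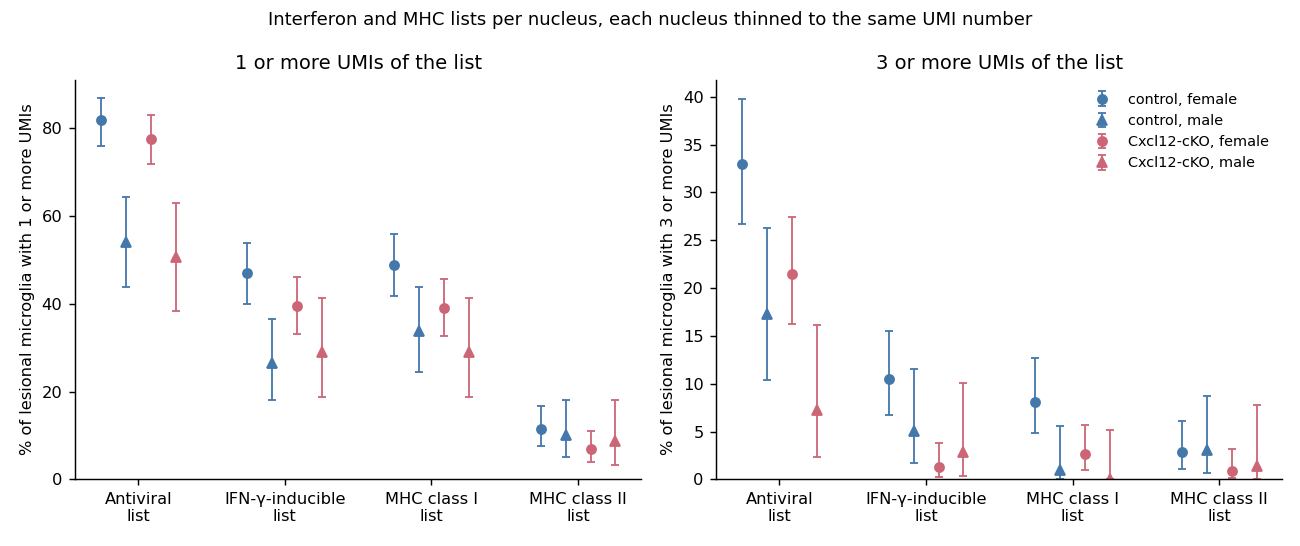
Share of lesional microglia (percent) with at least 1 (left) or at least 3 (right) UMIs of a gene list after thinning every nucleus to the same number of UMIs, by library label and sex of the mouse, with Clopper-Pearson bars. For 3 or more interferon-γ-inducible UMIs the female shares were 10.5% and 1.32%, and the male shares were 5.10% and 2.90%.

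Among the single genes, Iigp1, an immunity-related GTPase gene induced by interferon-γ, had 100 UMIs in 38 nuclei labelled control and 13 UMIs in 8 nuclei labelled Cxcl12-cKO. This was 91.1 and 13.5 CPM, a ratio of −2.71 (−3.72 to −1.92), with −2.88 in female and −1.18 in male nuclei, and the parenchyma held none. The nucleus with most Iigp1 held 25 of the 100. Fibroblast-gate nuclei held Iigp1 at 71.8 and 43.2 CPM. After thinning, a UMI of it was present in 3.88% and 0.529% of microglia and in 3.70% and 2.28% of fibroblast-gate nuclei, so free RNA cannot be told apart from expression in microglia for this gene. Fcgr4, an activating IgG receptor gene, had 43 and 11 UMIs in 34 and 10 nuclei, −1.73 (−2.89 to −0.80). Irf1, an interferon regulatory factor gene, stood at −1.05 in female and 0.01 in male nuclei. The antiviral gene Herc6 was at 158 and 92.2 CPM, −0.77 (−1.16 to −0.40), and lower in both sexes, at −0.91 and −0.97. A Herc6 UMI was about as frequent in fibroblast-gate nuclei as in microglia, at 6.72% and 5.83% against 9.59% and 4.76% of thinned nuclei, so the same holds for Herc6. Ifi204 (−0.57), Usp18 (−0.80) and Mx1 (−0.75) were lower in both sexes as well, whereas Ddx60 and Eif2ak2 stood at 0.06. Of the chemokine genes, Cxcl9 had 46 UMIs against 0, but 41 were in 1 nucleus, and Cxcl10 had 10 against 23, of which 19 were in 1 nucleus.

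The interferon response is known to act through short promoter elements, so the promoters of these genes were searched for them. The 250 bases before each start site were searched on both strands for TTCNNNGAA, the palindromic gamma-activated site, and for GAAANNGAA, the core of the interferon-stimulated response element. They occurred in 7.02% and 7.13% of 32851 RefSeq start sites, and in 247 sites together, where they overlapped in 40. In the antiviral list, which matched by 21 of 25 genes and 24 start sites, 11 genes (45.8% of start sites) held GAAANNGAA and 3 held TTCNNNGAA. In the interferon-γ list, which matched by 20 of 28 genes and 22 start sites, 9 genes (40.9%) held TTCNNNGAA and 14 (63.6%) GAAANNGAA. Of 11 start sites of MHC class I genes 3 (27.3%) held GAAANNGAA and 0 TTCNNNGAA, and none of 6 start sites of class II genes held either. Of 16 start sites of homeostatic genes outside the rule 6.25% held each. For 4 genes that were lower in both sexes, 90 bases are printed on the strand of the gene, with the match to GAAANNGAA or its complement in capitals. The sequences and positions are of RefSeq GRCm38.p6, an earlier build than the GRCm39 of the counts, and a match is not shown to be a bound site. Stat2 encodes a transducer of the response to type I interferon, Trim30a an interferon-induced ubiquitin ligase, Fcgr4 the IgG receptor above, and B2m the light chain of MHC class I. The windows are Stat2 at chr10:128270248-128270337 (plus strand, match 221 bases before the start), Trim30a at chr7:104465194-104465283 (minus strand, 35 bases), Fcgr4 at chr1:171018812-171018901 (plus strand, 73 bases) and B2m at chr2:122147507-122147596 (plus strand, 139 bases).
Stat2: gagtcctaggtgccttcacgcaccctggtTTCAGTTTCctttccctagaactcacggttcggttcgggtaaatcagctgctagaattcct
Trim30a: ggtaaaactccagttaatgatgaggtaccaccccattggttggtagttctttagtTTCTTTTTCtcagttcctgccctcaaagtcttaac
Fcgr4: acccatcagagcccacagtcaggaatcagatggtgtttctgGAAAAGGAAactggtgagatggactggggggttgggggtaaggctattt
B2m: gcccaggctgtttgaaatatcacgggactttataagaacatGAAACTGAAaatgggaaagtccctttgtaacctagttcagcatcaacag

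Stat2 stood at 144 and 104 CPM in the lesions labelled control and Cxcl12-cKO, −0.47 (−0.85 to −0.10), and at 82.7 and 40.1 CPM in the parenchyma. Trim30a stood at 310 and 241 CPM, −0.36 (−0.61 to −0.12), in 193 and 156 nuclei. Both remained under the fold. B2m stood at 378 and 198 CPM, −0.93 (−1.19 to −0.68), with −1.48 in female and −0.56 in male nuclei.

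Genes of MHC class I presentation, which load and display peptides to CD8 T cells, were lower too. Of 8 tested, 4 were lower past the fold, 0 higher and 6 below 0, where 9.55% of all genes were lower. The sum was 1218 and 734 CPM, −0.73 (−0.86 to −0.60). In the female nuclei the sums were 1607 and 693 CPM, and in the male nuclei 723 and 481 CPM. The heavy chain gene H2-K1 was at 290 and 168 CPM, −0.79 (−1.07 to −0.51), with −1.17 in female and −0.70 in male nuclei, and H2-D1 at 298 and 152 CPM, −0.97. Heavy chain genes are near-identical copies among which reads can be misassigned, so the split between them is uncertain. In the parenchyma the list summed to 1654 and 975 CPM, so the control library was the higher there as well.

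MHC class II genes, which display peptides to CD4 T cells, were read from few nuclei, and 1 nucleus set the direction in the male mice. Of 5 genes tested, 4 were lower past the fold and 0 higher, where 9.55% of all genes were lower. The sum of the list was 589 and 351 CPM. In female nuclei it was 614 and 150 CPM, −2.02 (−2.39 to −1.69), and in male nuclei 711 and 988 CPM, 0.48 (0.17 to 0.78). The 10 nuclei with most class II UMIs gave 69.2% and 84.1% of the list. In male nuclei labelled Cxcl12-cKO, 1 nucleus gave 176 of 187 UMIs, and without the richest male nucleus of each library the male values were 449 and 60.8 CPM, −2.83 (−3.93 to −1.99). That ratio rested on 111 and 11 UMIs, and without the richest 2 male nuclei it was −1.95 (−3.23 to −0.97). In female nuclei, 1 nucleus per library gave 153 of 346 and 53 of 87 UMIs. Without these the female ratio was −2.55 (−3.14 to −2.04). Without the richest nucleus of each library the ratio over all nuclei was −1.41 (−1.68 to −1.16). The shares of nuclei with a class II UMI were closer. After thinning they were 11.0% (8.19 to 14.3) and 8.99% (6.31 to 12.3), with 11.5% and 7.02% in female and 10.2% and 8.70% in male nuclei. The invariant chain gene Cd74 had 304 UMIs in 53 nuclei and 144 UMIs in 18 nuclei, of which 76 and 80 were in 1 nucleus each. Its level was 277 and 149 CPM, against at most 20.8 CPM in fibroblast-gate nuclei. That gate allowed no UMI of Csf1r, Inpp5d or Apbb1ip, so its level there is a description.

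**Figure D4:**
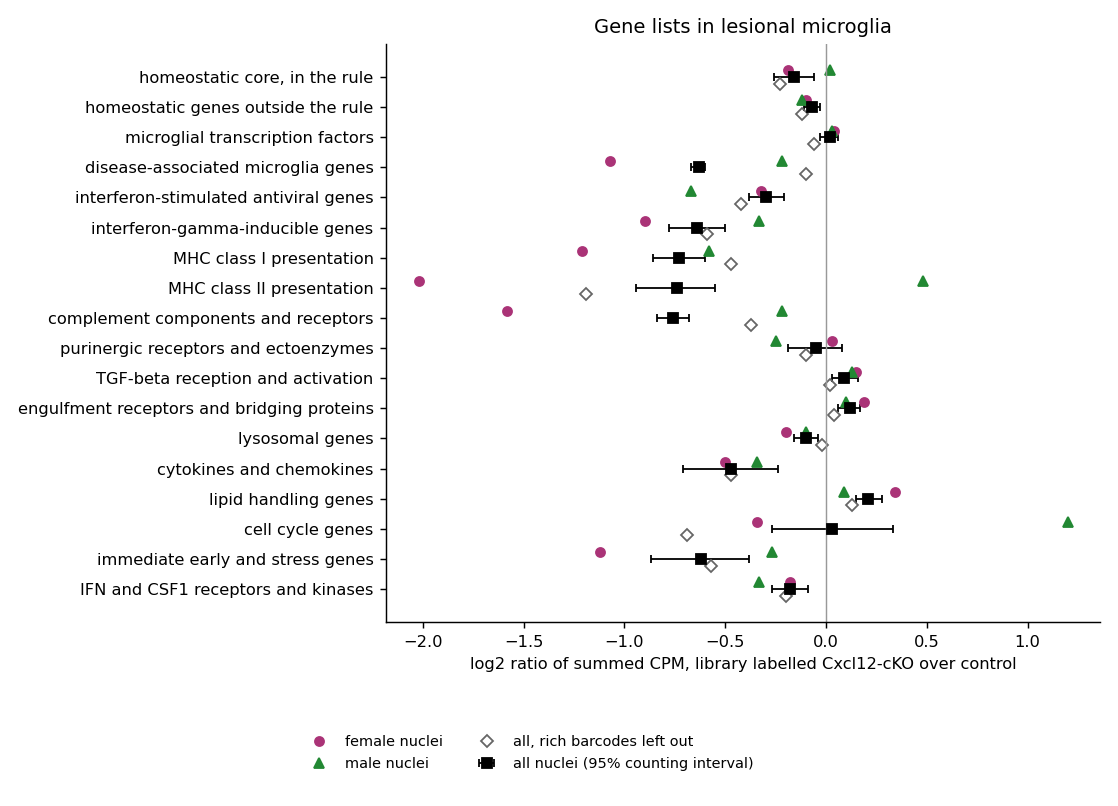
Log2 ratio of Cxcl12-cKO over control, as labelled, for the summed UMIs of gene lists in lesional microglia. Squares with 95% counting intervals are all nuclei, and circles and triangles, drawn without intervals, are female and male nuclei. Open diamonds are all nuclei without barcodes rich in ribosomal protein transcripts or in genes of another cell class. Homeostatic genes and transcription factors lay near 0 (−0.07 and 0.02), interferon and MHC class I lists lay below 0, and MHC class II stood at −2.02 in female and 0.48 in male nuclei, where 1 nucleus gave 176 of 187 UMIs labelled Cxcl12-cKO.

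Igf1, of the disease-associated list, stood higher under the Cxcl12-cKO label in female and in male nuclei. It was read in 209 of 438 lesional nuclei of the library labelled control and in 240 of 378 of the other, at 472 and 854 CPM, a log2 ratio of 0.86 (0.70 to 1.02). Female nuclei held 419 and 864 CPM, and male nuclei 571 and 962 CPM. The nuclei with most Igf1 held 16 UMIs in each library, so no single nucleus carried the sum. Thinned to equal depth, 23.5% and 39.9% of microglia had an Igf1 UMI. Fibroblasts express Igf1 too, and fibroblast-gate nuclei held 340 and 401 CPM, with 17.2% and 18.3% of thinned nuclei.

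Cholesterol and lipid genes differed less. Of 9 tested, 2 were higher past the fold, 0 lower and 8 above 0, where 5.82% of all genes were higher. Their sum was 3698 and 4291 CPM, 0.21 (0.15 to 0.28), with 0.34 in female and 0.09 (−0.04 to 0.22) in male nuclei. Abcg1, a sterol exporter, was at 312 and 460 CPM, 0.56 (0.35 to 0.76), with 0.53 in female and 0.75 in male nuclei, while the parenchyma held 82.7 and 93.5 CPM and the fibroblast gate 22.6 and 29.8. Scd2, a fatty acid desaturase gene, was the other, at 40.1 and 63.2 CPM. Abca1 was at 0.19 (0.11 to 0.27). The galectin gene Lgals3 was at 168 and 246 CPM, 0.56 (0.27 to 0.84), and higher in both sexes. Spp1, which encodes osteopontin, was at 108 and 154 CPM, 0.51 (0.15 to 0.87), with 0.12 in female and 0.98 in male nuclei.

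The disease-associated list as a whole was split by a few very rich nuclei. Of 21 genes tested, 4 were higher and 5 lower past the fold, where 5.82% of all genes were higher and 9.55% lower. The median of the list was −0.01, yet its sum was 16300 and 10528 CPM, −0.63 (−0.67 to −0.60). The median nucleus held 18 and 19 UMIs of the list, and the 10 richest nuclei gave 40.8% and 18.6% of it. Apoe, the lipid carrier gene, made most of the sum. It stood at 10710 and 4915 CPM, −1.12 (−1.17 to −1.08), but its median per nucleus was 7 and 6 UMIs, and 10 nuclei gave 50.6% and 27.1% of it, the largest with 1259 and 468 UMIs. Tyrobp, the adaptor of TREM2, was at 297 and 158 CPM, −0.90 (−1.19 to −0.63), with −2.11 in female and −0.12 in male nuclei. The complement gene C1qa was at 1108 and 611 CPM, −0.86 (−1 to −0.72), with 58.9% and 45.6% of its UMIs in 10 nuclei, and C1qb and C1qc were at −0.98 and −1.04.

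These sums moved with barcodes that resembled whole cells or mixtures. Over 1% of UMIs came from cytosolic ribosomal protein genes in 55 of 438 lesional microglia of the library labelled control (12.6%, 9.60 to 16.0) and in 28 of 378 of the other (7.41%, 4.98 to 10.5), and 19 and 6 were rich in genes of another cell class. Ribosomal protein transcripts stood at 17771 CPM in female nuclei of the control library and at 4387 CPM in its male nuclei, against 4283 CPM in female and 4554 CPM in male nuclei of the other library. Fibroblast markers summed to 604 and 243 CPM and markers of oligodendrocyte precursors to 430 and 135 CPM, with 2 nuclei giving 116 and 87 of 663 and 112 and 96 of 472 UMIs in the control library. Without both kinds of barcode, which left 366 and 344 nuclei, the ratio was −0.34 for Apoe, −0.30 for Tyrobp, −0.45 for C1qa and −0.10 for the whole disease-associated list. It was −0.42 for the antiviral list, −0.59 for the interferon-γ list, −0.47 for MHC class I, −0.12 for homeostatic genes outside the rule, 0.76 for Igf1 and 0.49 for Abcg1. For MHC class II it was −1.19, from 188 and 82.6 CPM, with −2.21 in female and −0.60 (−1.83 to 0.49) in male nuclei. The antiviral, interferon-γ, Igf1 and Abcg1 differences were thus about as large without these barcodes, and those of Apoe, Tyrobp and C1qa were much smaller.

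**Figure D5:**
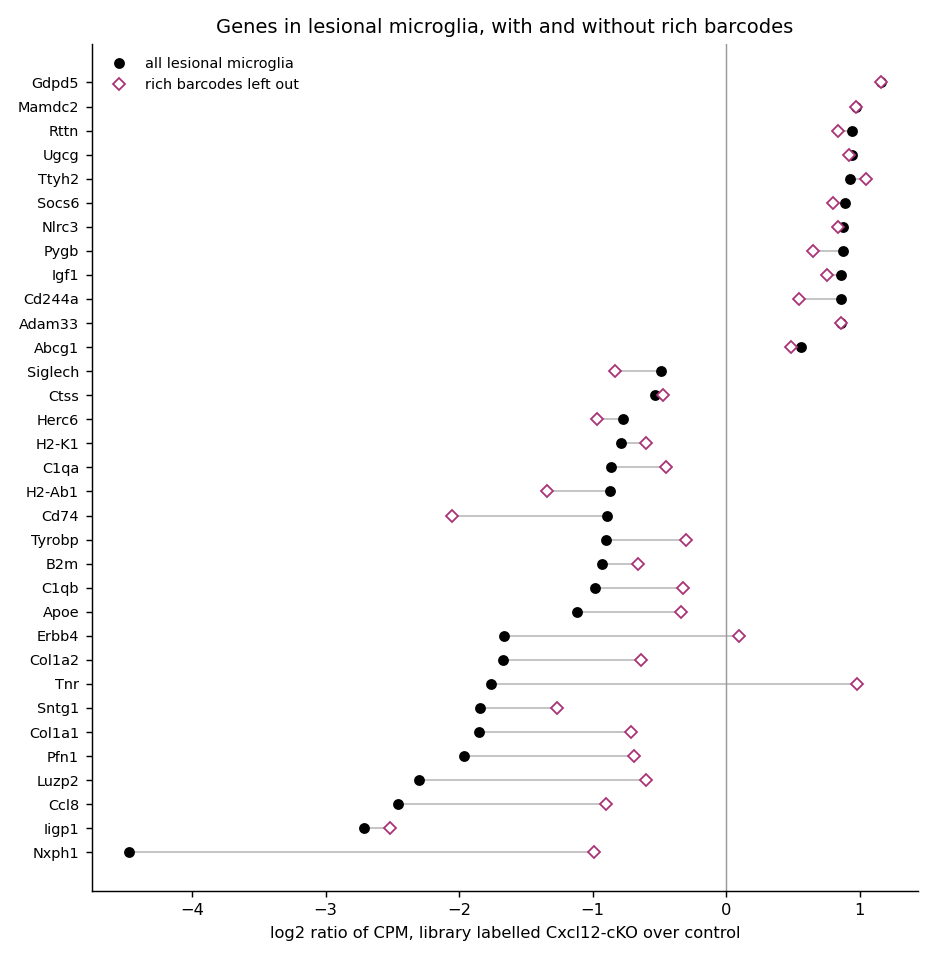
Log2 ratio of Cxcl12-cKO over control, as labelled, for single genes in all lesional microglia (black dots) and without barcodes rich in ribosomal protein transcripts or in genes of another cell class (open diamonds). Apoe moved from −1.12 to −0.34 and C1qa from −0.86 to −0.45, while Igf1 moved from 0.86 to 0.76.

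By the naming rule of at least 100 UMIs and the same sign in both sexes, the genes highest in the library labelled Cxcl12-cKO were Gdpd5, Mamdc2, Ugcg, Rttn, Ttyh2, Socs6, Pygb, Nlrc3, Adam33 and Cd244a, at ratios from 0.86 to 1.16. Gdpd5, a glycerophosphodiesterase gene, had 37 and 73 UMIs in 33 and 57 nuclei, 1.16 (0.58 to 1.78). Ugcg, which makes glucosylceramide, was at 41.9 and 80.8 CPM. Adam33, which had no parenchymal UMI, was at 101 and 184 CPM in 74 and 98 nuclei, 0.86 (0.52 to 1.22), with 1.09 in female and 0.65 in male nuclei. Mamdc2 had 38 and 66 UMIs in about as many nuclei, 23 and 25, of which 17 UMIs were in 1 nucleus.

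The lowest by that rule were Nxph1, Iigp1, Ccl8, Luzp2, Pfn1, Col1a1, Sntg1, Tnr, Col1a2 and Erbb4, at −4.47 to −1.66. Most of them are not microglial genes. Nxph1 and Luzp2 are genes of neurons and glial precursors, Tnr is a matrix gene of oligodendrocyte precursors, Erbb4 a neuregulin receptor gene of neurons, and Col1a1 and Col1a2 are fibroblast collagens. Of the 189 Nxph1 UMIs in the control library, 119 were in 1 nucleus. Without the rich barcodes the ratio was −0.99 for Nxph1, −0.60 for Luzp2, −0.64 for Col1a2, 0.98 for Tnr and 0.10 for Erbb4, whereas it was −2.52 for Iigp1. The chemokine gene Ccl8 had 55 of its 90 UMIs in 1 nucleus. Pfn1, which encodes the actin-binding profilin, was at 107 and 26.9 CPM, and at −0.69 without those barcodes.

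Across genes the mice gave little common pattern. Of 4064 named genes with 100 or more UMIs, 2157 (53.1%) had the same sign in female and male nuclei, and Pearson's r across genes was 0.05. Genes are not independent replicates, and each sex is 1 mouse per library.

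Within the lesional microglia, nuclei with 1 to 4 Gpnmb UMIs differed from those with none. There were 116 and 148 of the former and 322 and 230 of the latter in the libraries labelled control and Cxcl12-cKO, and the former were deeper, with medians of 2442 and 2740 UMIs against 1995 and 1929.5. A Gpnmb UMI was present in 26.5% and 39.2% of nuclei, and in 13.7% and 20.1% after thinning. Where Gpnmb was present the log2 ratio of Igf1 was 1.01 and 0.97, of Lgals3 1.48 and 1.25 and of the lipid list 0.45 and 0.39. Siglech was at −2.75 and −2.13 and the homeostatic genes outside the rule at −0.33 and −0.26. MHC class II was at 1.47 and 0.82 there. Under the Cxcl12-cKO label 1 nucleus gave 176 of the 206 class II UMIs there, against 133 UMIs where Gpnmb was absent. The higher value under that label thus rested on 1 nucleus. The interferon-γ list was lower where Gpnmb was present, at −0.49 and −0.30.

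In class II genes the Cx3cr1-only nuclei stood above the others by amounts that rested on 1 or 2 nuclei per library. They held 1026 CPM of the list against 511 CPM in the other lesional microglia labelled control, 1.01 (0.75 to 1.26), and 1495 against 152 CPM in those labelled Cxcl12-cKO, 3.30 (2.97 to 3.63). Without the richest Cx3cr1-only nucleus of each library, which held 67 of 170 and 176 of 214 class II UMIs, the ratios were 0.32 (−0.01 to 0.62) and 0.90 (0.33 to 1.42). Without the richest 2 they were −0.00 (−0.37 to 0.33) and −0.91 (−2.07 to −0.05), so the higher class II level did not remain. Siglech was at 60.4 against 178 CPM, −1.50 (−2.65 to −0.65), where labelled control, and at 76.9 against 120 CPM in the other library, where the interval, −1.70 to 0.25, included no difference. Ms4a7 was somewhat higher, at 332 against 255 CPM and 454 against 337 CPM.

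Set against lesional nuclei with 5 or more Gpnmb UMIs, the microglia held more of several homeostatic genes outside the rule, whose sum was 9858 and 9417 CPM against 5638 and 5221 CPM. The classes were cut from the same counts, so these values are a description. Of 15 homeostatic genes outside the rule, 9 were higher in microglia past a log2 ratio of 1 in both libraries and 0 lower, where 2.89% of 6745 genes were higher and 3.32% lower. Siglech was at 160 and 114 CPM in microglia and 2.54 and 3.45 CPM in Gpnmb-high nuclei, ratios of 5.76 and 4.96. The prostaglandin synthase gene Ptgs1 (2.82 and 3.62), the leukotriene synthase gene Ltc4s (3.27 and 2.55) and the class II genes H2-Eb1 and H2-Ab1 were among the 10 highest. In the microglia, H2-Eb1 rested on 84 and 34 UMIs and H2-Ab1 on 102 and 49. Only 10 microglia per library gave 69.2% and 84.1% of the class II list. Among the lowest were the fatty acid carrier gene Fabp4 (−4.32 and −6.07), the proton pump subunit gene Atp6v0d2, at 111 and 146 CPM against 1731 and 1877 CPM, and the macrophage elastase gene Mmp12, at 38.3 and 71.5 CPM against 598 and 687 CPM. Mamdc2, higher in the microglia labelled Cxcl12-cKO, was also a Gpnmb-high gene, at 34.6 and 68.3 CPM in microglia and 829 and 1038 CPM there. None of 17 antiviral genes passed the fold in either direction.

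Border-associated macrophages, taken by Cd163 and F13a1, differed from the microglia in other genes. Of 14 homeostatic genes outside the rule 4 were higher in microglia and 0 lower, where 3.62% of 4444 genes were higher and 2.39% lower. Nav3 was at 1955 and 1985 CPM in microglia and 201 and 114 CPM in border macrophages, ratios of 3.27 and 4.09, and the protease gene Capn3 at 4.62 and 5.91. The mannose receptor gene Mrc1 was at 149 and 89.1 CPM in microglia and 2013 and 2254 CPM in border macrophages, and Rbpj, the Notch effector gene, at 434 and 399 against 3063 and 3121 CPM. The class II list was lower in microglia, at 589 and 351 CPM against 2435 and 629 CPM.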

How the data were processed

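Per the labels, nuclei were captured with Chromium 3′ v3.1 reagents and processed by the authors with Cell Ranger 9.0.0 on GRCm39, and the 4 deposited matrices hold raw UMI counts as whole numbers, without any scaling. The tag libraries were used by the authors to assign regions and were not analysed here. How intronic reads were treated is not stated in the sources that were read. The members, gene lists and naming rule were chosen with earlier results of these data known. UMIs were summed over nuclei and divided by their total as CPM, so fewer transcribing nuclei and less RNA per nucleus cannot be told apart. Ratios had 0.5 added to each sum. Genes were compared with 50 or more UMIs (20 per library between regions), and "past the fold" means a log2 ratio of at least 0.5 between libraries and 1 in both libraries elsewhere. Named genes were the 10 highest and 10 lowest with 100 or more UMIs (20 in each library between regions) and the same sign in both sexes or both libraries, without sex-linked, mitochondrial and unnamed genes, plus members of the lists. Motif windows were taken from list genes whose interval lay below 0 and that were lower in both sexes. Start sites on the chromosome of Iigp1 were left out of the printed windows, so the absence of Iigp1 there says nothing about its promoter. Single values of some list genes are not reported here. Nuclei were assigned to a sex by Xist or Y-linked UMIs. Each thinned table used a random draw of its own. No library had a replicate, so no test was run. Scripts ran in Python 3.11.15 with matplotlib 3.10.9, pandas 2.3.3, scipy 1.17.1 and numpy 2.4.6, and were checked on simulated counts.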

Additional observations from a re-analysis of the deposited data

Results flagged for a closer look

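The summed MHC class II list had log2 ratios of Cxcl12-cKO over control of −2.02 in female and 0.48 in male lesional microglia, a difference of −2.50. In the male mouse labelled Cxcl12-cKO 1 nucleus gave 176 of 187 UMIs, and without the richest male nucleus of each library the male ratio was −2.83, the sign of the female one. That value rested on 111 and 11 UMIs, and without the richest 2 it was −1.95. Without barcodes rich in ribosomal protein transcripts or in genes of another class the male ratio was −0.60. The astrocyte marker list went from 380 to 242 CPM in female nuclei (−0.65) and from 208 to 571 CPM in male nuclei (1.45), a difference of −2.10. Here 1 male nucleus labelled Cxcl12-cKO gave 62 of 108 UMIs, and without the richest male nucleus of each library the male ratio was 0.39 (−0.22 to 1.01). After thinning, 14.3% and 17.4% of male and 18.2% and 18.0% of female nuclei held a UMI of the list. Each sex is 1 mouse per library, and neither difference between the sexes was tested.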

How the results depend on the processing

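No paired analysis was possible because each genotype had 1 library, so the replicate numbers pair nothing. The lesional share ratio (−0.19) was 0.14 in female nuclei and −0.53 when nuclei were thinned before the gate, which left 165 and 112 microglia. Genes higher past the fold (378) numbered 190 in male nuclei, 67 and 175 when thinned before or after the gate, and 879 and 65 at a minimum of 20 or 200 UMIs. Genes lower (620) numbered 192, 89 and 192, and 1403 and 122 under the same settings, and 350 without both kinds of rich barcode. Far fewer genes could be compared after thinning (891 and 2797 of 6492) and in male nuclei (2061). Between regions, 383 genes higher in the lesion became 94 and 242 after thinning before or after the gate and 235 at 50 UMIs, and 363 higher in the parenchyma became 30, 123 and 98, and 572 without a Gpnmb limit. The MHC class I median was −1.33 in female nuclei, and the interferon-γ median was 0.10 in male nuclei, where 1 gene had enough UMIs, against a male sum of −0.33. The class II median (−0.87) was −0.30 with at most 2 Gpnmb UMIs, −2.14 in female and 0.48 in male nuclei, where its sum also turned to 0.48, −1.98 without ribosomal-rich barcodes and −2.05 without both kinds. Thinned before the gate, the interferon-γ sum (−0.64, or −0.38 thinned after the gate) turned to 0.02, Ugcg to −0.33, Cd244a to −0.07, Nxph1 to 1.04, Ccl8 to 0.56, Tnr to 0.20, Col1a2 to 0.13 and the lesional ratio of Cd74 to −0.57. Without barcodes rich in another class Tnr and Erbb4 were 0.82 and 0.03, and without both kinds 0.98 and 0.10. The causes were not tested. Without the richest nucleus of each library the class II sum was −1.41. The settings on rich barcodes and richest nuclei were added after seeing the data. Depth limits genes under 50 UMIs and every value of the 22 and 33 parenchymal microglia.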

Other observations

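Of 6 immediate early and stress genes, which respond within minutes to stimulation, 3 were lower past the fold in lesional microglia labelled Cxcl12-cKO and 0 higher, where 9.55% of all genes were lower. The sum was 353 and 230 CPM, −0.62, with −1.12 in female and −0.27 (−0.95 to 0.37) in male nuclei. It was −0.57 (−0.84 to −0.30) without the richest 2 nuclei of each library, which gave 47 and 36 of 388 UMIs in the control library. After thinning, 15.5% and 15.3% of nuclei held at least 1 UMI of the list. Fos was at −2.08 and Junb at −0.98. Among cytokines and chemokines, which summed to 354 and 256 CPM, Ccl4 was at 51.0 and 25.9 CPM and Ccl12 had 37 and 5 UMIs, while Il10 and Il12b were at 0. Engulfment receptors and lysosomal genes were close between the libraries, with medians of 0.06 and −0.13.

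Cell cycle genes were rare in these microglia, at 178 and 181 CPM in all, and were held by few nuclei, of which 3 gave 55, 33 and 27 of 195 UMIs in the library labelled control and 3 gave 40, 39 and 15 of 175 in the other. Nuclei with 1 to 4 Gpnmb UMIs held more of them than nuclei with none, by 1.22 and 1.63 on the log2 scale. The near-equal totals of the libraries hid opposite signs by sex. The log2 ratio was −0.34 (−0.74 to 0.04) in female and 1.20 (0.56 to 1.89) in male nuclei. Without both kinds of rich barcode it was −1.84 (−2.43 to −1.31) and 1.24 (0.58 to 1.96). These values rest on few nuclei, and the difference was not tested.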
